A study of Mus musculus with 2 samples.

Results

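A set of 10 genes of bone morphogenetic protein (BMP) signalling was followed through 6 conditions of mouse skin cells. The set was chosen by symbol from the 32285 genes counted and holds the inhibitors of DNA binding Id1, Id2, Id3 and Id4, the inhibitory SMADs Smad6 and Smad7, the receptor Bmpr1a, the ligands Bmp2 and Bmp4, and the secreted modulator Sostdc1. The series concerns PHGDH, the enzyme that starts serine synthesis, in hair follicle stem cells of resting and injured skin. Cells were sorted from Sox9-CreER;R26-LSL-YFP;Phgdh fl/fl mice and from Sox9-CreER;R26-LSL-YFP;Phgdh +/+ mice on a C57B6/J background, either unwounded or at 3 or 5 days after wounding. In both genotypes the same inducible Cre, driven by Sox9, switches on YFP, so YFP marks cells that expressed Sox9 in the follicle and their progeny, and in fl/fl mice that Cre also deletes Phgdh. Males and females were pooled. The 6 conditions were marked with 6 hashtags and captured together, so each is 1 pool of cells and has no replicate, and no test was possible. The deposited hashtag table names the 2 genotypes cKO and WT, which are taken here as fl/fl and +/+.

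The sort differed between unwounded and wounded skin. All cells were negative for CD140a, CD117, CD31 and CD45, and positive for YFP and high integrin-α6. Unwounded cells were also negative for SCA1 and positive for CD34 and CD200, the surface phenotype of the bulge, where the follicle's stem cells rest, while wounded cells had no gate on those 3 proteins. Wounding and the gate therefore cannot be told apart in any comparison of wounded with unwounded cells.

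BMP ligands bind pairs of type I and type II receptors, which phosphorylate SMAD1, SMAD5 and SMAD9. These join SMAD4, enter the nucleus and turn on target genes, of which the Id genes are the best known. ID proteins bind bHLH transcription factors of the E protein family and keep them off DNA, and SMAD6 and SMAD7 feed back on the receptors. In the hair follicle, BMP signalling through BMPR1A keeps bulge stem cells quiescent, and its antagonists are linked to the start of hair growth.

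Promoters are shown for Id2, Id3, Id4 and Smad6, each more than 4-fold lower in all 4 wounded pools when scaled to the pool total. RefSeq promoter windows on GRCm38.p6 run from 250 bases before to 50 bases after the start, and 6 of the 10 genes matched the table. Capitals mark GGCGCC or GCCGNCGC (reverse complement GCGNCGGC), GC-rich letters of the kind bound by SMAD1 and SMAD5, and GTCTAGAC, the palindromic SMAD element. Lines are 5′ to 3′ on the gene's own strand.
Id2 (chr12:25096043-25096342, minus strand): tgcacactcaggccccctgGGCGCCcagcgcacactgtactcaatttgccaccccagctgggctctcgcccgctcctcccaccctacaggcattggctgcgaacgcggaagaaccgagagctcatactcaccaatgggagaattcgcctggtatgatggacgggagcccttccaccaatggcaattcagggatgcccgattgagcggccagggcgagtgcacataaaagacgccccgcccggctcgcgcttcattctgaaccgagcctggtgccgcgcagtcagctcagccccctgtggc
Id4 (chr13:48260866-48261165, plus strand): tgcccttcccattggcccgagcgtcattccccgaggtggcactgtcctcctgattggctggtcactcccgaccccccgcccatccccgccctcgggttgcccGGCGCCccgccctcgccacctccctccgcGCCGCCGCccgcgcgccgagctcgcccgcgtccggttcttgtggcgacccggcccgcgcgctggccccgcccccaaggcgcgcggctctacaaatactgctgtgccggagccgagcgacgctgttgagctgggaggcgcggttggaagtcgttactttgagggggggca
Id3 (chr4:136143572-136143871, plus strand): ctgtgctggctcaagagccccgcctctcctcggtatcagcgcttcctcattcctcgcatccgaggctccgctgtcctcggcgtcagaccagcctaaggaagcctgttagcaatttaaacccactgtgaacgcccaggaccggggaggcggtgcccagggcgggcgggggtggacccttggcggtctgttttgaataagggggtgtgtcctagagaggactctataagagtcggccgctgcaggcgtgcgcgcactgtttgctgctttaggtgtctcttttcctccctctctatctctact
Smad6 (chr9:64022010-64022309, minus strand): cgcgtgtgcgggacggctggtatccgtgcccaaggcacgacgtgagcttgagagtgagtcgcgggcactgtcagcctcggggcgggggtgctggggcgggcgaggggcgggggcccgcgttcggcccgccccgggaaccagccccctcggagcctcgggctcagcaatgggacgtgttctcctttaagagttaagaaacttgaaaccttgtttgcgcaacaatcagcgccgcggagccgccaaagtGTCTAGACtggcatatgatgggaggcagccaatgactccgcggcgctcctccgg
The Id2 window held GGCGCC at -231 from the start and the Id4 window held it at -148, with GCCGNCGC at -119. GGCGCC was in 11.87% of the 32851 promoter windows of the table and GCCGNCGC in 9.759%. The Smad6 window held GTCTAGAC at -4, which 70 of the 32851 windows (0.2131%) also held. The Id3 window had none of the 3 letter strings on either strand. Promoters rich in G and C hold such letters more often, and all 4 windows were above the median GC content of 52.67%: 63.33% for Id2, 73.33% for Id4, 60.0% for Id3 and 66.33% for Smad6. Of the other 2 matched windows, that of Bmpr1a, a gene less than 2-fold lower on the same scale, held GGCGCC 1 time and GCCGNCGC 3 times at a GC content of 79.33%, the most of the 6, and that of Bmp4 held neither. A match is a description of letters and not of a bound site.

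The pools differed in size and depth. Those at 3 and 5 days held 523 to 1434 cells and 22247350 to 70925244 gene UMIs (unique molecules), against 662 (fl/fl) and 406 (+/+) cells and 5167131 and 3241223 UMIs in unwounded skin. A wounded cell held a median of 36277 to 45702 UMIs, against 7243 (fl/fl) and 7175 (+/+) in unwounded cells. Phgdh, the deleted gene, was at 25.2 (fl/fl) and 54.3 (+/+) CPM in unwounded cells, at 15.3 (fl/fl) and 117 (+/+) CPM at 3 days, and at 20.2 (fl/fl) and 138 (+/+) CPM at 5 days, so the labelled genotypes differed at each stage. CPM are UMIs summed over the cells of a pool and scaled to its total gene UMIs (counts per 1000000). The 12 bulge markers summed to 696 to 1570 CPM in wounded pools, against 18240 (fl/fl) and 17230 (+/+) CPM in unwounded pools. Cells of bulge-like clusters made up 3.35% to 19.5% of wounded pools, against 96.53% (fl/fl) and 96.55% (+/+) of unwounded pools. Cells called female were found in the 2 wounded +/+ pools, 31.15% at 3 days and 23.65% at 5 days, and in no other pool. Among markers of other cell types, the 8 immune markers summed to 0.973 to 6.97 CPM in wounded and 2.52 (fl/fl) and 1.85 (+/+) CPM in unwounded pools. The 9 fibroblast or dermal papilla markers summed to 1.67 to 2.82 CPM in wounded and 32.9 (fl/fl) and 30.2 (+/+) CPM in unwounded pools. Of these, Dcn, Lum and Corin were at 0 in unwounded cells of both genotypes, and Col3a1 and Rspo3 in those of +/+ mice. The unwounded sums, which lay above the wounded ones, came from the remaining markers, among them Col1a1, Col1a2, Pdgfra and Vcan. The 6 melanocyte markers summed to 16.9 to 33.4 CPM in wounded and 516 (fl/fl) and 596 (+/+) CPM in unwounded pools. Kit, Dct and Tyrp1 were at 0 in unwounded +/+ cells, and Kit and Tyrp1 in fl/fl cells at 3 days. Melanocyte-like clusters held 12 (fl/fl) and 3 (+/+) unwounded cells, and 18 to 46 cells of each wounded pool.

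All 4 Id genes were lower in wounded than in unwounded pools, to very different extents. Id2 was at 346 (fl/fl) and 320.2 (+/+) CPM in unwounded cells, at 17.7 (fl/fl) and 20.5 (+/+) CPM at 3 days, and at 6.19 (fl/fl) and 10.8 (+/+) CPM at 5 days. Id4, the Id gene whose protein is best known from neural progenitors and mammary stem cells, was at 96.6 (fl/fl) and 81.5 (+/+) CPM in unwounded cells, at 4.86 (fl/fl) and 5.48 (+/+) CPM at 3 days, and at 1.72 (fl/fl) and 3.91 (+/+) CPM at 5 days. For both genes every wounded pool lay far below both unwounded pools, and each 5 day pool lay below the 3 day pool of its genotype. The log2 fold of Id2 in fl/fl cells was -4.29 at 3 days (95% interval -4.45 to -4.13) and -5.80 at 5 days (-5.96 to -5.65), and in +/+ cells -3.97 (-4.09 to -3.84) and -4.89 (-5.04 to -4.74). As linear ratios these put Id2 lower by 19.5-fold and 55.8-fold in fl/fl cells, and by 15.6-fold and 29.7-fold in +/+ cells. The size depended on the weighting of cells: with equal weight per cell the log2 folds of Id2 were -3.41 and -4.77 in fl/fl cells at 3 and 5 days, and -3.15 and -3.79 in +/+ cells. With at most 5% mitochondrial UMIs per cell they were -5.17 and -6.40 in fl/fl cells, and -4.43 and -5.42 in +/+ cells. All intervals here are 95% and exact, and cover counting error only, since molecules were counted once each but animals were not separated. Id4 had log2 folds of -4.31 (-4.63 to -4.01) and -5.81 (-6.11 to -5.52) in fl/fl cells at 3 and 5 days, and of -3.89 (-4.14 to -3.65) and -4.38 (-4.65 to -4.12) in +/+ cells.

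Id3 and Id1 stayed at higher levels in wounded pools. Id3 was at 528 (fl/fl) and 421 (+/+) CPM in unwounded cells, at 60.8 (fl/fl) and 77.4 (+/+) CPM at 3 days, and at 75.8 (fl/fl) and 97.9 (+/+) CPM at 5 days. Its log2 folds were -3.12 (-3.21 to -3.02) and -2.80 (-2.87 to -2.73) in fl/fl cells at 3 and 5 days and -2.44 (-2.53 to -2.36) and -2.11 (-2.19 to -2.02) in +/+ cells. Id1 had the smallest difference of the 4. It was at 342 (fl/fl) and 286 (+/+) CPM in unwounded cells, at 135 (fl/fl) and 125 (+/+) CPM at 3 days, and at 157 (fl/fl) and 152 (+/+) CPM at 5 days. Its log2 folds lay between -1.34 (-1.42 to -1.25; fl/fl, 3 days) and -0.91 (-1.0 to -0.81; +/+, 5 days). Unlike Id2 and Id4, both Id1 and Id3 were at a higher level at 5 days than at 3 days in either genotype. In these sums, fewer cells of a type that holds a gene and less of its RNA per cell cannot be told apart.

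**Figure D1:**
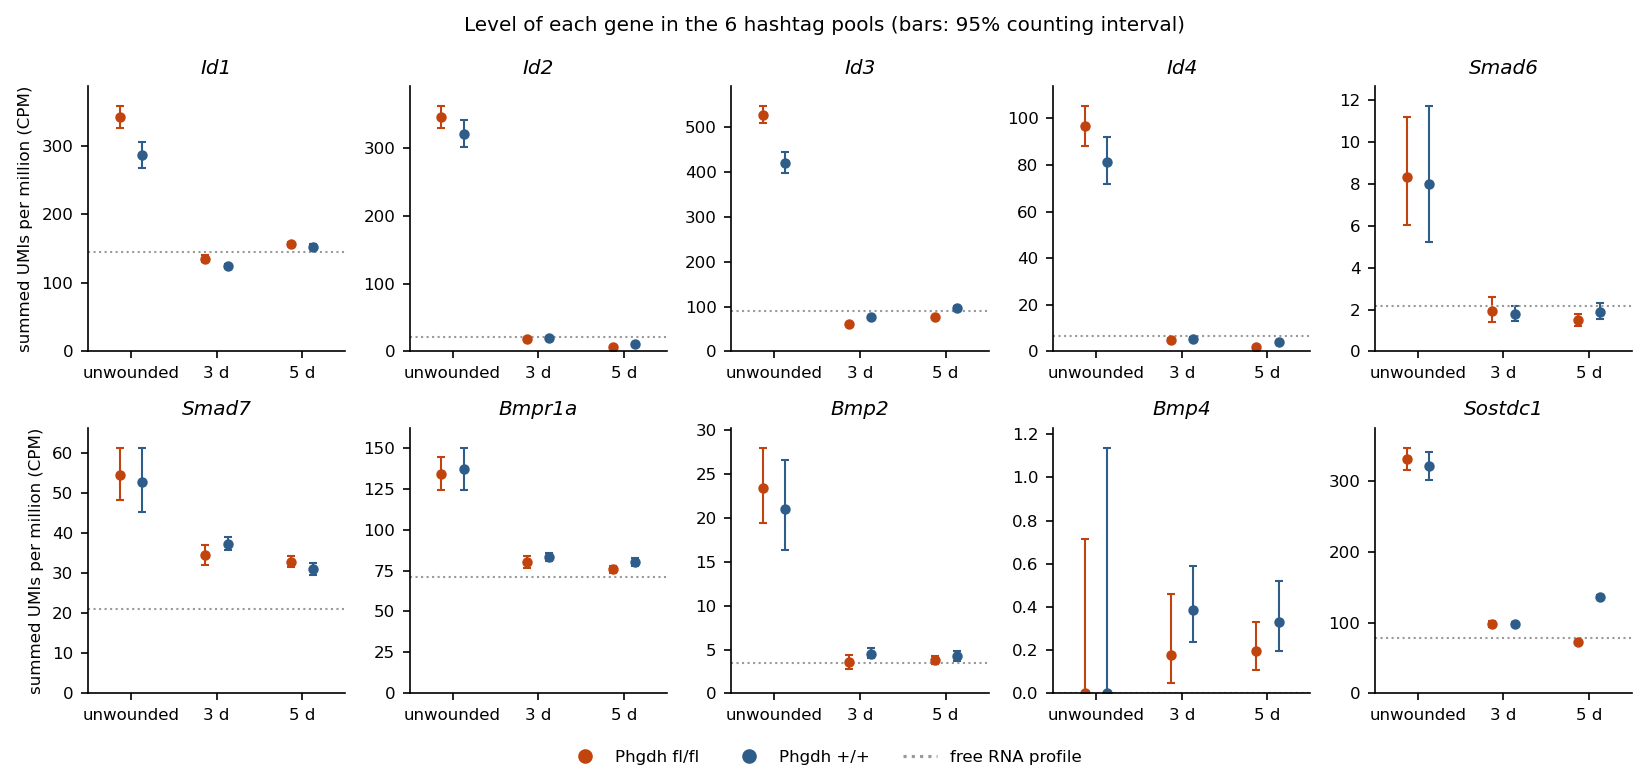
Level of each of the 10 genes (CPM, linear axis from 0) in the 6 hashtag pools, with fl/fl (orange) left of +/+ (blue) at each stage, 95% Poisson intervals as bars and the level in free RNA as a dotted line. Id2 and Id4 lie near the axis in all wounded pools, Sostdc1 at 5 days is at 72.7 (fl/fl) and 136 (+/+) CPM, and Bmp4 is at 0 in unwounded cells.

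The share of cells with at least 1 UMI followed the same order once every cell was thinned to 3000 UMIs. Id2 was found in 53.6% (fl/fl) and 48.1% (+/+) of thinned unwounded cells, in 6.10% and 7.96% at 3 days, and in 2.53% and 5.04% at 5 days. Id4 was found in 25.3% (fl/fl) and 19.75% (+/+) of unwounded cells and in 0.985% to 2.13% of wounded cells. Id3 was found in 65.9% (fl/fl) and 55.7% (+/+) of unwounded cells and in 14.96% to 22.9% of wounded cells. Id1 was found in 48.75% (fl/fl) and 44.56% (+/+) of unwounded cells and in 24.6% to 28.1% of wounded cells. Free RNA in the droplets, estimated from 65043 near-empty barcodes, would alone give a UMI of Id2 in 0.205% to 0.210% of unwounded and 0.0331% to 0.0406% of wounded cells at that depth, far under the shares found. Without thinning, Id1 was found in 71.6% (fl/fl) and 66.0% (+/+) of unwounded cells and in 72.8% to 77.3% of wounded cells, which are the deeper ones. A few cells weighed on the low levels: the 5 cells with most Id2 held 26.65% of its UMIs in the fl/fl pool at 3 days.

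The inhibitory SMADs differed from each other. Smad6, whose protein mainly restrains BMP receptors, was at 8.32 (fl/fl) and 8.02 (+/+) CPM in unwounded cells, at 1.93 (fl/fl) and 1.78 (+/+) CPM at 3 days, and at 1.495 (fl/fl) and 1.89 (+/+) CPM at 5 days. These are small sums, 43 to 106 UMIs in wounded pools and 43 (fl/fl) and 26 (+/+) in unwounded ones. The log2 folds of Smad6 ran from -2.48 (-3.00 to -1.93; fl/fl, 5 days) to -2.09 (-2.72 to -1.41; +/+, 5 days). Smad7, whose protein restrains both BMP and TGF-beta receptors, was at 54.4 (fl/fl) and 52.8 (+/+) CPM in unwounded cells, at 34.5 (fl/fl) and 37.4 (+/+) CPM at 3 days, and at 32.9 (fl/fl) and 31.0 (+/+) CPM at 5 days. Its log2 folds lay between -0.77 (-1.0 to -0.53) and -0.50 (-0.72 to -0.26), both in +/+ cells, at 5 and 3 days. Smad7 was thus less than 2-fold lower in each wounded pool, while Smad6 was more than 4-fold lower by its point estimates.

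The receptor and the ligands split in the same way. Bmpr1a, the type I receptor through which BMP acts on follicle stem cells, was at 134 (fl/fl) and 137 (+/+) CPM in unwounded cells, at 80.2 (fl/fl) and 83.3 (+/+) CPM at 3 days, and at 75.7 (fl/fl) and 80.1 (+/+) CPM at 5 days. Its 4 log2 folds lay between -0.83 (-0.94 to -0.71) and -0.71 (-0.85 to -0.57), so the receptor's share of the pool total was lower by 1.64-fold to 1.77-fold. Bmp2, a ligand made by epithelial and dermal cells of skin, was at 23.4 (fl/fl) and 21.0 (+/+) CPM in unwounded cells, against 3.55 to 4.54 CPM in the wounded pools. Its log2 folds were -2.72 (-3.15 to -2.30) and -2.63 (-2.95 to -2.31) in fl/fl cells at 3 and 5 days, and -2.21 (-2.60 to -1.80) and -2.29 (-2.69 to -1.88) in +/+ cells. Without cells called female, the +/+ value of Bmp2 at 3 days was -2.96, and its fold of 5 over 3 days was 0.53, against -0.09 with all cells. Bmp4, a ligand best known from the dermal papilla, was barely present. It had 0 UMIs in both unwounded pools, which allows levels of up to 0.581 (fl/fl) and 0.926 (+/+) CPM (3 counts per pool), and 4, 21, 14 and 18 UMIs in the pools at 3 days (fl/fl, +/+) and 5 days (fl/fl, +/+), or 0.180 to 0.386 CPM. The wounded levels lie under what 0 UMIs allow in unwounded cells, so no difference was detectable at this depth.

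Sostdc1, also called Wise, encodes a secreted protein that binds BMPs and the WNT co-receptor LRP6. It was at 332 (fl/fl) and 322 (+/+) CPM in unwounded cells, at 97.6 (fl/fl) and 98.2 (+/+) CPM at 3 days, and at 72.7 (fl/fl) and 136 (+/+) CPM at 5 days. Its log2 folds were -1.77 (-1.86 to -1.67) and -2.19 (-2.27 to -2.11) in fl/fl cells at 3 and 5 days, and -1.71 (-1.81 to -1.61) and -1.24 (-1.33 to -1.14) in +/+ cells. The 2 genotypes lay together in unwounded skin and at 3 days and apart at 5 days.

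Counted over the 10 genes, 6 of 8 measured in +/+ cells at 3 days were at least 2-fold lower, beside 28.1% of all genes; a gene counts as measured at a mean of at least 5 CPM over the pair. In +/+ cells at 5 days it was 5 of 8, beside 28.8% of all genes. In fl/fl cells at 3 days it was 7 of 9, beside 27.9% of all genes, and at 5 days 6 of 8, again beside 27.9%. Smad6 and Bmp4 were not measured by that rule, except that Smad6 was in fl/fl cells at 3 days. Every measured member was lower in each of these 4 comparisons, as were 60.47% to 62.72% of all genes. The members' median log2 fold was -2.11 (fl/fl) and -1.96 (+/+) at 3 days and -2.41 (fl/fl) and -1.67 (+/+) at 5 days, and the median over all genes lay between -0.34 and -0.29. The comparisons at 3 and 5 days share their unwounded pool and are not independent. Scaling by TMM factors moved all wound folds up, by 0.53 to 0.60, and put the median of all genes at 0.23 to 0.27. The members' medians were then -1.57 (fl/fl) and -1.40 (+/+) at 3 days and -1.85 (fl/fl) and -1.07 (+/+) at 5 days. Under that scaling Smad7 turned to 0.06 in +/+ cells at 3 days and lay between -0.17 and -0.12 in the other pools, and Bmpr1a lay between -0.26 and -0.15, so the choice of scaling decides whether either counts as lower.

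**Figure D2:**
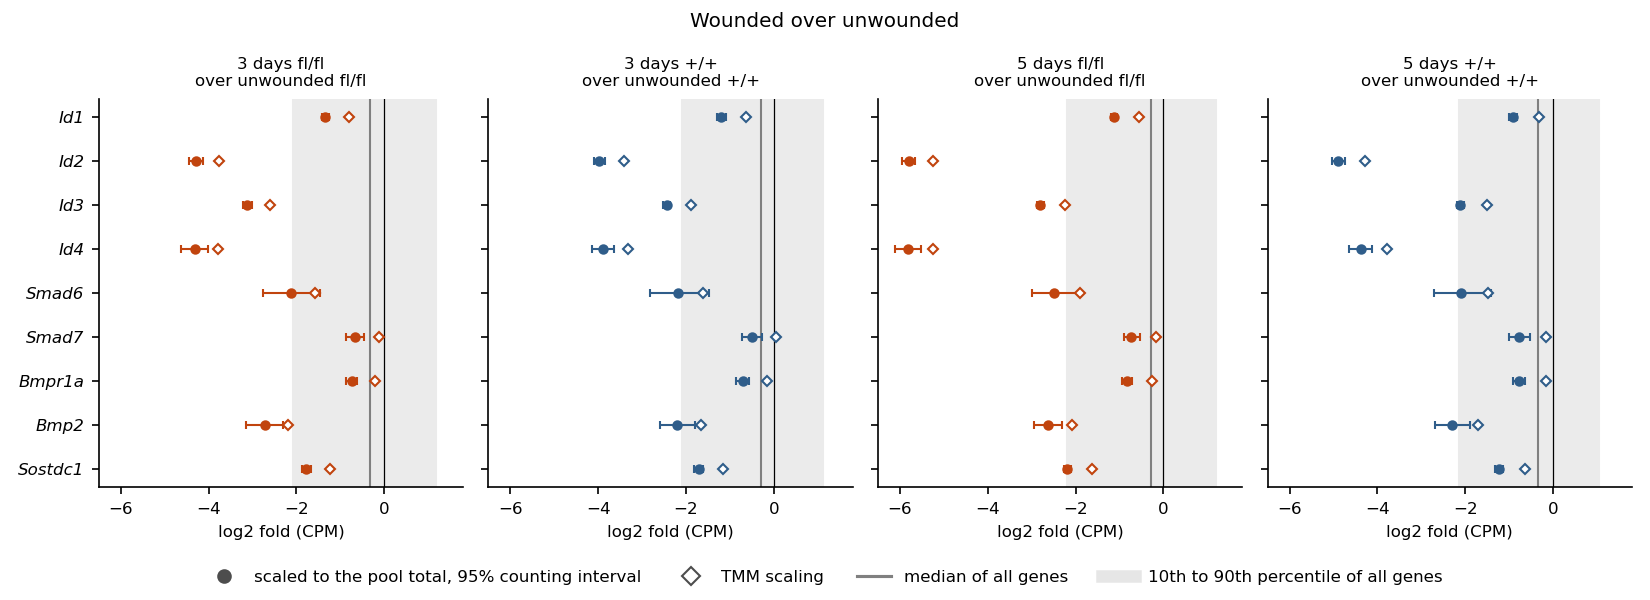
Log2 fold of wounded over unwounded cells in the 4 comparisons (x axis) for 9 genes (Bmp4 has no fold), scaled to the pool total with 95% counting intervals (filled) or by TMM factors (open); the vertical line is the median and the grey band the 10th to 90th percentile of all genes. Id2 and Id4 lie left of the band in each comparison, at or below -3.89 for filled and -3.33 for open points, while Smad7 and Bmpr1a lie inside it in each.

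Relative levels are not amounts per cell, because wounded cells held more RNA molecules. The ratio of UMIs per cell was 2.45 (fl/fl) and 2.41 (+/+) on the log2 scale at 3 days and 2.66 and 2.34 at 5 days. As plain UMIs per cell, Id2 was at 0.753 (fl/fl) and 0.869 (+/+) at 3 days and at 0.306 and 0.435 at 5 days, against 2.70 (fl/fl) and 2.56 (+/+) in unwounded cells, and so was lower on this scale too. Its log2 folds of UMIs per cell were -1.84 and -3.14 in fl/fl cells at 3 and 5 days, and -1.56 and -2.56 in +/+ cells. Id4 kept its direction as well, with -1.87 and -3.15 in fl/fl and -1.48 and -2.05 in +/+ cells. Id1 had the opposite direction on this scale, with 5.75 (fl/fl) and 5.30 (+/+) UMIs per cell at 3 days and 7.76 and 6.14 at 5 days, against 2.67 (fl/fl) and 2.28 (+/+) in unwounded cells. Id3 lay between, from -0.67 (fl/fl, 3 days) to 0.23 (+/+, 5 days). Smad7 and Bmpr1a also had the opposite direction on this scale in all 4 comparisons, with log2 folds of 1.57 to 1.94 for Smad7 and 1.56 to 1.84 for Bmpr1a. Among the members measured, Id2 and Id4 alone were at least 2-fold lower on both scales. On UMIs per cell that is 2 of 9 (fl/fl) and 2 of 8 (+/+) at 3 days, beside 3.29% (fl/fl) and 3.21% (+/+) of all genes, and 2 of 8 in each genotype at 5 days, beside 4.0% (fl/fl) and 3.73% (+/+). Id1, Smad7 and Bmpr1a were at least 2-fold higher in UMIs per cell in each comparison, and Sostdc1 in +/+ cells at 5 days, as were most genes: 81.7% (fl/fl) and 80.6% (+/+) at 3 days, and 84.5% (fl/fl) and 78.9% (+/+) at 5 days.

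Among wounded cells, Id2 sat mainly in the bulge-like clusters, and Id4 was at its highest level there; these clusters were named from markers such as Cd34, Krt15 and Lhx2. Clusters were built from all genes, so differences between them are descriptions, and 5 of the 10 members (the 4 Id genes and Sostdc1) were among the genes used. Bulge-like cells held 61.7% of the Id2 UMIs of wounded cells and 38.2% of those of Id4, while holding 5.204% of all their gene UMIs. Summed over wounded pools, Id2 was at 149 CPM in bulge-like cells, at 13.9 to 20.2 CPM in the upper follicle-like class and in clusters 9 and 13, and lower in the other classes of at least 50 wounded cells. Clusters are given by number where no marker list named them. Cluster 9 was led by Aldh3a1, H2-Q7 and Lrig1, and cluster 13 by Cxcl9 and Thbs1. Smad6 was less confined to bulge-like cells, with 7.71 CPM there, 7.14 CPM in cluster 13 and 5.15 CPM in cluster 9. It was at 2.23 CPM in upper follicle-like cells, 0.689 CPM in wound edge-like cells and 0.451 CPM in cluster 6. Bulge-like cells held 23.2% of its wounded UMIs.

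Id3 and Sostdc1 had a broader distribution in the wound. Id3 was at 368 CPM in bulge-like cells, 221 CPM in cluster 13, 155 CPM in cluster 11 (led by Sox6 and Cxcl10) and 38.9 CPM in wound edge-like cells. Sostdc1 was as high in clusters 13 and 9, 428.5 and 428.1 CPM, as anywhere, against 313 CPM in bulge-like, 81.4 CPM in cycling-like and 5.87 CPM in wound edge-like cells. Wound edge-like cells, marked by Krt6b, Mmp9 and Mmp13, thus held 1.48% of the Sostdc1 UMIs but 25.1% of all gene UMIs of wounded cells. Cluster 6, led by the late cornified envelope genes Lce3c and Lce3d, was about as poor in Sostdc1 (6.92 CPM) and poorer in Id3 (12.3 CPM). Id1 was the exception among the Id genes: summed over wounded pools, it was highest in cluster 6, at 214 CPM, at 160 CPM in bulge-like cells, and lowest in cluster 10, at 63.8 CPM. Cluster 6 did not stand apart in each pool. In fl/fl cells at 5 days Id1 was at 230.7 CPM there and 231.1 CPM in cluster 11. In +/+ cells at 3 days it was at 190.0 CPM there and 187.1 CPM in bulge-like cells. Smad7 was also highest in cluster 6 in the sums over wounded pools, at 57.5 CPM, with 51.6 CPM in bulge-like and 20.1 CPM in suprabasal-like cells. In the +/+ pool at 5 days, though, cluster 6 was at 35.4 CPM of Smad7. Bulge-like cells were at 54.8 CPM there, cluster 10 at 43.5 CPM and cluster 11 at 37.3 CPM. Bmpr1a varied least, from 55.9 CPM in cluster 6 to 136 CPM in cluster 9.

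The ligands sat elsewhere. Bmp2 was highest in cluster 10, at 14.8 CPM, which was led by Tspear, Mob3b and Fras1 and had the receptor gene Bmpr1b among its top 10 genes. It was at 9.74 CPM in cluster 11 and at 0.696 CPM in cluster 9. Bmp4 gave 57 UMIs in 49 wounded cells, never more than 2 in a cell. Of these, 27 UMIs (47.4%) were in 23 cells of clusters 10 and 11, which held 521 of the 4591 wounded cells (11.35%). Free RNA held 0 UMIs of Bmp4. Cluster 11 alone reached 2.98 CPM of Bmp4, with 38.6% of its wounded UMIs and 3.66% of all wounded gene UMIs.

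**Figure D3:**
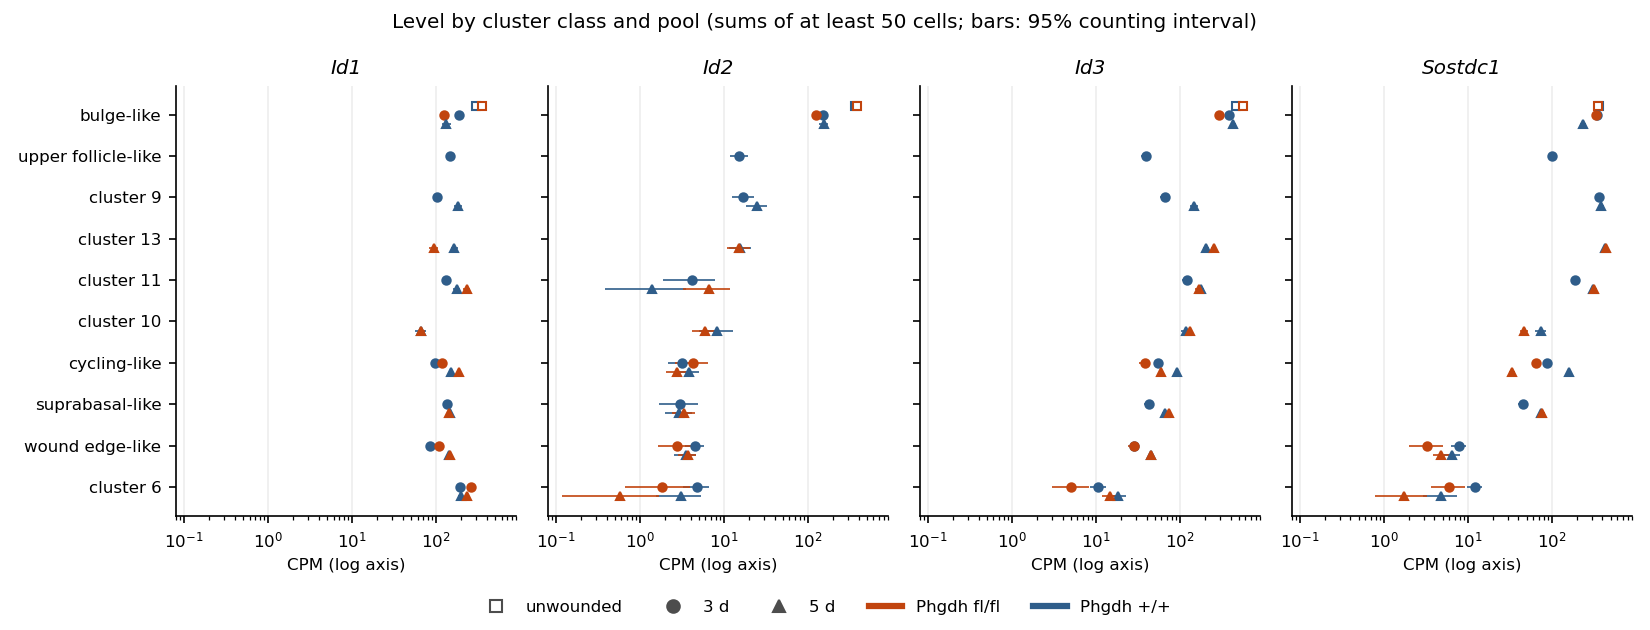
Level of Id1, Id2, Id3 and Sostdc1 (CPM, log axis) in each cluster class (rows) and pool, for sums of at least 50 cells, with 95% counting intervals; open squares are unwounded, circles 3 days and triangles 5 days, orange fl/fl and blue +/+. Id2 is above 100 CPM in bulge-like cells of every pool shown and below 25 CPM in all other classes, while Id1 lies within a narrow range.

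Within the bulge-like class alone, the differences between wounded and unwounded cells were smaller for Id2, Id3 and Id4 than in whole pools, but not for Id1 in all pools. The class is made of different clusters: clusters 1, 7 and 16 held most unwounded members, and cluster 4 held 77.9% to 88.2% of the wounded ones. The fl/fl pool at 5 days had 48 such cells, under the minimum of 50, and is not given. Id2 was at 125 (fl/fl) and 152 (+/+) CPM in bulge-like cells at 3 days and 153 CPM in +/+ cells at 5 days, against 378 (fl/fl) and 366 (+/+) CPM in unwounded ones. Its log2 folds within the class were -1.59 (-1.77 to -1.42; fl/fl, 3 days), -1.26 (-1.40 to -1.13; +/+, 3 days) and -1.26 (-1.45 to -1.07; +/+, 5 days). Id4 had -2.23, -1.67 and -1.68 in the same pools, and Bmp2 -2.24, -2.10 and -3.19. Id1 was lower by -1.52 (-1.70 to -1.34) in fl/fl and -0.66 (-0.79 to -0.52) in +/+ cells at 3 days, and by -1.16 in +/+ cells at 5 days, where the whole pool had -0.91. Id3 was lower by -0.94 (-1.06 to -0.82) in fl/fl cells at 3 days, but by -0.25 and -0.11 in +/+ cells at 3 and 5 days. Sostdc1 was at 340.1 (fl/fl) and 340.5 (+/+) CPM in bulge-like cells at 3 days, against 354 (fl/fl) and 363 (+/+) CPM in unwounded ones, with log2 folds of -0.06 (-0.18 to 0.06) and -0.09 (-0.20 to 0.02). In +/+ cells at 5 days the fold of Sostdc1 was -0.62 (-0.79 to -0.47). Smad7 and Bmpr1a had log2 folds between -0.40 and 0.03 in the class. At least 2-fold lower within the class were 4 of 9 measured members in fl/fl cells at 3 days, beside 17.2% of all genes, 3 of 9 in +/+ cells at 3 days, beside 17.4%, and 4 of 9 in +/+ cells at 5 days, beside 10.8%.

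Some of these values depended on the members' own part in the clustering. When the 10 genes were left out of it, bulge-like cells numbered 89 (fl/fl) and 200 (+/+) at 3 days and 64 (fl/fl) and 176 (+/+) at 5 days, and Id2 was at 124 (fl/fl), 170 (+/+), 147 (fl/fl) and 115 (+/+) CPM in them, against 378 (fl/fl) and 366 (+/+) CPM in unwounded cells. Of the +/+ cells at 5 days in this class, 76.7% were also in the class above. The log2 fold of Id2 was then -1.61 (fl/fl) and -1.10 (+/+) at 3 days and -1.36 (fl/fl) and -1.66 (+/+) at 5 days. Id3 in +/+ cells at 5 days had -0.41 (-0.53 to -0.29), and Sostdc1 at 3 days had 0.09 (-0.03 to 0.22) in fl/fl and 0.07 (-0.04 to 0.19) in +/+ cells. Bulge-like wounded cells held more UMIs than unwounded ones, a mean of 24558 (fl/fl) and 22967 (+/+) at 3 days and 14631 (+/+) at 5 days, against 7299 (fl/fl) and 7210 (+/+). Per cell, Id2 was at 3.08 (fl/fl) and 3.498 (+/+) UMIs in bulge-like cells at 3 days, against 2.76 (fl/fl) and 2.64 (+/+) UMIs in unwounded ones. At 3 days its direction within this class thus turned round without scaling to the total. In +/+ cells at 5 days Id2 was still lower than in unwounded ones, at 2.235 UMIs per cell.

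Between 5 and 3 days, the Id genes parted into pairs in whole pools. Id2 had a log2 fold of -1.52 (-1.72 to -1.32) in fl/fl and -0.92 (-1.07 to -0.78) in +/+ cells, and Id4, at under 5 CPM, of -1.50 (-1.88 to -1.11) and -0.49 (-0.75 to -0.23). Id1 had 0.21 (fl/fl) and 0.29 (+/+), and Id3 0.32 (fl/fl) and 0.34 (+/+). With equal weight per cell Id3 had 0.06 (fl/fl) and 0.08 (+/+). Of the 6 members measured, Id2 in fl/fl cells was the 1 at least 2-fold different, beside 3.08% of all genes, and 0 were in +/+ cells, beside 1.52%. Without the cells called female the Id2 fold in +/+ cells was -1.38, past 2-fold. Within +/+ bulge-like cells Id2 was at 153 CPM at 5 days and 152 CPM at 3 days, a log2 fold of 0.00 (-0.19 to 0.20), but with the 10 genes left out of the clustering it was -0.56 (-0.75 to -0.37). In the same +/+ class Id1 had -0.50 (-0.70 to -0.30) and Id3 0.15 (0.03 to 0.26). With the 10 genes left out, Id1 had -0.51, Id3 -0.36 and Id4 -0.42, so all 4 Id genes were lower at 5 days there. In fl/fl bulge-like cells, with the 10 genes left out, Id1 had 0.57, Id2 0.25, Id3 -0.04 and Id4 -0.34. The share of bulge-like cells was 3.35% at 5 days and 19.5% at 3 days in fl/fl pools, and 10.05% and 18.35% in +/+ pools. In whole pools Sostdc1 had opposite directions in the genotypes, -0.42 (-0.50 to -0.35) in fl/fl and 0.47 (0.42 to 0.52) in +/+ cells. Within +/+ bulge-like cells it had -0.53 (-0.68 to -0.39).

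Between the genotypes, no measured member differed by 2-fold at any stage. In unwounded cells this was 0 of 9, beside 1.43% of all genes, at 3 days 0 of 7, beside 0.374%, and at 5 days 0 of 6, beside 0.95%. Id3 was higher in fl/fl than in +/+ unwounded cells, with a log2 fold of 0.33 (0.23 to 0.42), and lower in fl/fl cells at 3 days, -0.35 (-0.44 to -0.26), and at 5 days, -0.37 (-0.42 to -0.31). Id1 had 0.26 (0.14 to 0.37) in unwounded cells, 0.12 (0.05 to 0.18) at 3 days and 0.04 (0.00 to 0.08) at 5 days. At 5 days fl/fl cells held more UMIs per cell than +/+ cells, a log2 ratio of 0.30. On UMIs per cell Id3 was at -0.07 and Id1 at 0.34 at that time. In unwounded cells 8 of the 9 measured members were higher in fl/fl, with a median of 0.11, against -0.04 for all genes. Of all genes, 57.3% were lower in fl/fl. Only Id1, Id3 and Id4 had intervals above 0 there, and those of the other measured members reached 0. The 17 immediate early genes, which also respond to cell isolation, had a median of 0.50 in that comparison, all 17 higher in fl/fl, among them Fos at 2911 (fl/fl) and 1930 (+/+) CPM. Their part in the Id gene values was not tested.

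At 5 days the largest genotype differences were those of Sostdc1 and Id2 among measured members. Sostdc1 had a log2 fold of -0.91 (-0.96 to -0.86), or 1.88-fold lower in fl/fl, and Id2 of -0.80 (-0.98 to -0.62). Without cells called female these were -0.89 and -0.43, and the part of those cells in the Id2 value was not tested further. On UMIs per cell Sostdc1 had -0.61 and Id2 -0.51. Id4, under 5 CPM, had -1.18 (-1.52 to -0.86). The bulge identity genes were lower in the same comparison, with a median of -0.75 over 12 measured and 5 of them at least 2-fold lower, beside 0.907% of all genes, among them Krt15 at 242 (fl/fl) and 566 (+/+) CPM. By class, Sostdc1 at 5 days was at 33.5 (fl/fl) and 159 (+/+) CPM in cycling-like cells. It was also lower in fl/fl cells of cluster 10, at 46.35 (fl/fl) and 73.92 (+/+) CPM. Its intervals overlapped in the other 5 classes with both pools: 77.2 (fl/fl) and 74.6 (+/+) CPM in suprabasal-like cells, 318 (fl/fl) and 310 (+/+) CPM in cluster 11, 437 (fl/fl) and 427 (+/+) CPM in cluster 13, 1.73 (fl/fl) and 4.80 (+/+) CPM in cluster 6, and 4.83 (fl/fl) and 6.56 (+/+) CPM in wound edge-like cells. Id2 at 5 days had overlapping intervals in every class with both pools. In bulge-like cells, with the 10 genes left out of the clustering, Id2 was higher in fl/fl, at 147 (fl/fl) and 115 (+/+) CPM. That log2 fold was 0.35 (0.06 to 0.63). Id3 at 5 days did not go one way in all classes. It was at 59.1 (fl/fl) and 92.8 (+/+) CPM in cycling-like cells, but at 253 (fl/fl) and 203 (+/+) CPM in cluster 13, at 132 (fl/fl) and 117 (+/+) CPM in cluster 10 and at 73.95 (fl/fl) and 66.15 (+/+) CPM in suprabasal-like cells, with the intervals overlapping in the last 2 of these and in clusters 6 and 11 and wound edge-like cells. At 3 days, within bulge-like cells, Id1 had a log2 fold of -0.59 (-0.78 to -0.41) between the genotypes and Id3 of -0.41 (-0.54 to -0.29), while Sostdc1 had 0.00 (-0.12 to 0.12). Id1 had the opposite direction in the other 3 classes with both pools at 3 days, at 117 (fl/fl) and 96.3 (+/+) CPM in cycling-like cells, 262 (fl/fl) and 190.0 (+/+) CPM in cluster 6, and 107 (fl/fl) and 83.7 (+/+) CPM in wound edge-like cells. The genotype folds of Smad6, Smad7 and Bmpr1a had intervals that reached 0 at all 3 stages, except that of Bmpr1a at 5 days, -0.08 (-0.14 to -0.02). On UMIs per cell that value of Bmpr1a was 0.21.

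**Figure D4:**
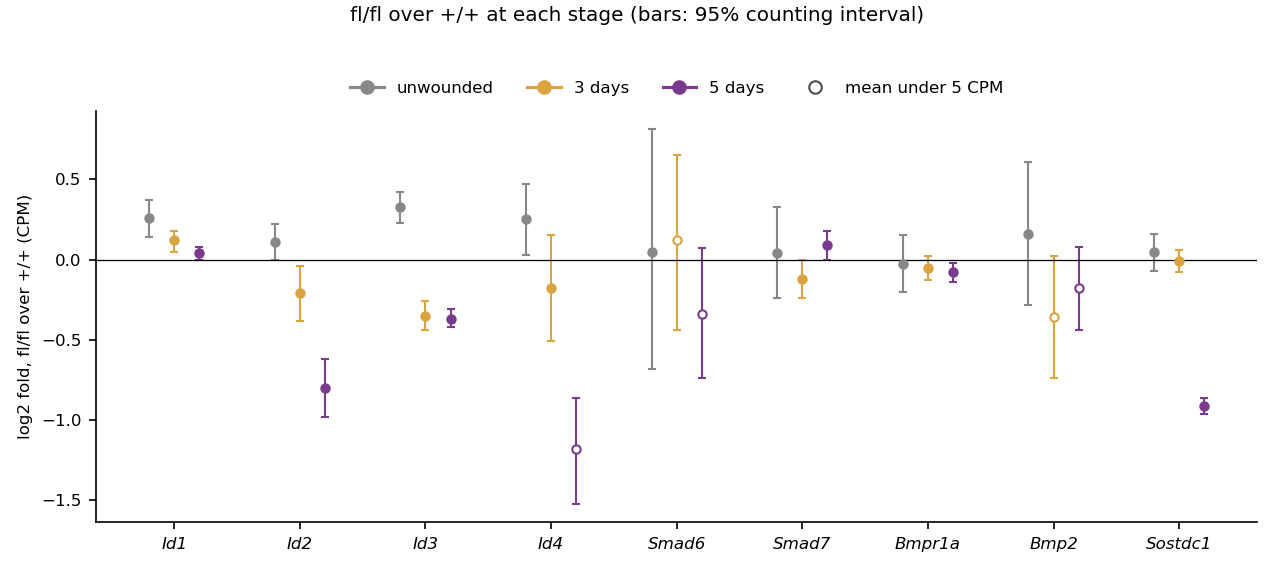
Log2 fold of fl/fl over +/+ cells (y axis) for 9 genes in unwounded skin (grey), at 3 days (yellow) and at 5 days (purple), with 95% counting intervals; open points have a mean under 5 CPM. Id3 lies above 0 in unwounded cells (0.33) and below 0 at 3 and 5 days (-0.35 and -0.37), and Sostdc1 is at -0.91 at 5 days.

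Other genes of the pathway were read from lists by role. Of 16 secreted antagonists and modulators (Sostdc1 among them), 11 were measured, and 7 were at least 2-fold lower at 3 days in each genotype, as were 8 (fl/fl) and 7 (+/+) at 5 days, beside the 27.9% to 28.8% of all genes given above. Grem1, encoding the BMP antagonist gremlin, was at 12.4 (fl/fl) and 13.8 (+/+) CPM at 3 days, and at 1.81 (fl/fl) and 5.36 (+/+) CPM at 5 days, against 389.6 (fl/fl) and 397 (+/+) CPM in unwounded cells. Nog, encoding noggin, was at 1.21 (fl/fl) and 1.45 (+/+) CPM at 3 days, against 61.7 (fl/fl) and 45.0 (+/+) CPM in unwounded cells. These antagonists were thus lower in the same pools as the Id genes. Of the 13 ligands, Bmp7 was higher in the wound, at 33.0 (fl/fl) and 34.5 (+/+) CPM at 3 days against 7.55 (fl/fl) and 8.64 (+/+) CPM, a log2 fold of 2.13 (1.66 to 2.63) and 2.0 (1.46 to 2.59). Among 8 measured receptors and co-receptors, Bmpr1b was higher at 5 days, with 54.0 (fl/fl) and 43.2 (+/+) CPM against 9.87 (fl/fl) and 4.01 (+/+) CPM, and Acvr2a, a type II receptor, was lower at 3 days, by -1.71 (fl/fl) and -1.81 (+/+).

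The transducers were lower to unequal degrees. Smad5 had log2 folds of -1.21 (fl/fl) and -1.42 (+/+) at 3 days, while Smad1 had -0.58 and -0.47 and Smad4 -0.57 and -0.55, and under TMM scaling Smad1 and Smad4 lay between -0.04 and 0.09 at that time. Smad9, named here after its values were seen, was at 0.270 (fl/fl) and 0.442 (+/+) CPM at 3 days, against 27.3 (fl/fl) and 24.1 (+/+) CPM in unwounded cells. The BMP target genes Nfatc1 and Foxc1 had -2.14 and -2.08 in fl/fl and -2.13 and -1.76 in +/+ cells at 3 days. Both are also on the list of bulge identity genes. Of the list of 14 Id and target genes, 7 of 9 measured (fl/fl) and 8 of 11 (+/+) were at least 2-fold lower then, beside 27.9% (fl/fl) and 28.1% (+/+) of all genes. The 4 Id genes, counted above, are among them. Of the bHLH partners of ID proteins, Tcf12 was at 179 (fl/fl) and 202 (+/+) CPM at 3 days, against 877 (fl/fl) and 1037 (+/+) CPM, and Tcf4 had log2 folds of -2.20 and -2.02. Of 12 measured genes of the related TGF-beta arm, 3 were at least 2-fold lower and 2 higher at 3 days in each genotype, near the shares of all genes, of which 27.9% (fl/fl) and 28.1% (+/+) were lower and 12.3% (fl/fl) and 11.8% (+/+) higher.

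Over 30 sums (pool by class, 10 classes), the pattern of Id2 was closest to that of Id4 among the members, with a Pearson r of 0.94 of log2(CPM + 1), and Id3 was closest to Sostdc1, with r = 0.83. Id1 followed none of them closely, with r = 0.26 to Id2, 0.04 to Id3 and 0.41 to Id4. Among 4103 other genes, those most like Id2 were Fzd2 (0.97), Dmd (0.964) and Trim2 (0.961), and Fzd2 (0.969), Adcy1 (0.962) and Gm973 (0.956) were most like Id4. Klf4, a keratinocyte differentiation factor, was most like Id1 (0.687), followed by Rnf144b (0.662) and Ppfibp2 (0.635). Ebpl (0.968) was most like Id3, Gcnt2 (0.946) most like Sostdc1, Plekha7 (0.952) most like Bmpr1a, Acsl3 (0.815) most like Smad7 and Ifitm10 (0.853) most like Bmp2. The sums come from 1 capture, share clusters and pools and are not independent, so r is a description.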

How the data were processed

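The deposited matrix holds UMI counts per gene and hashtag for 2997303 barcodes, not called cells. Per the submitters' processing notes, Cell Ranger 7.1.0, Seurat 4.3.0 and the mm10 build were used. Filters asked for 1000 gene UMIs per barcode (9880 passed), then for 500 genes (9829 passed), then for no more than 10% mitochondrial UMIs, which 6900 passed and 2929 failed. Hashtags were called with HTODemux (Seurat 5.3.0, R 4.3.3, quantile 0.99), which gave 5659 singlets, used here, 503 doublets and 738 negatives. Doublets within a hashtag remain: Scrublet's automatic threshold called 0 barcodes, so the 126 highest scores were removed as an alternative. Free RNA came from 65043 barcodes of 100 to 400 UMIs and would make up 3.28% (fl/fl) and 3.21% (+/+) of unwounded and 0.517% to 0.635% of wounded pools. It was not subtracted.

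UMIs were summed per pool and scaled to the pool total (CPM). Levels carry exact Poisson, folds exact conditional binomial and shares Clopper-Pearson intervals (scipy 1.17.1, Python 3.11.15). TMM factors came from edgeR 4.0.16, used for nothing else. Cells were clustered with scanpy 1.11.5 (2000 variable genes, 30 components, 15 neighbours, Leiden resolution 1), and a cluster was named when at least 3 markers of a list were at least 10 CPM and 2-fold above other cells, with further conditions on its top 10 genes that were set after data were seen. Cells with at least 2 Xist UMIs and at most 1 UMI of Y-linked genes were called female. The calculation was tested on simulated data.

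The members, lists and tests were chosen with earlier results of these data known. From each other list, the 4 largest folds among measured genes with a mean from 20 CPM upwards could be named, as well as the 3 genes most like each member by r. Smad9 falls outside that rule. Alternatives were other cell filters, hashtag rules, scalings, weights, folds, minimum levels, thinning depths, resolutions and cell classes. A further gene that this rule covers is not reported here, and the counts of its list include it.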

Additional observations from a re-analysis of the deposited data

Results flagged for a closer look

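Id3 differed between the genotypes in opposite directions by stage. Its log2 fold of fl/fl over +/+ was 0.33 in unwounded cells, -0.35 at 3 days and -0.37 at 5 days, and no counting interval held 0. On UMIs per cell it was 0.29 in unwounded cells, -0.35 at 3 days and only -0.07 at 5 days. With 1 pool per condition the difference between the stages was not tested. Within bulge-like cells the fold was 0.27 in unwounded cells and -0.41 at 3 days. The immediate early genes had medians of 0.50, -0.18 and -0.13 in the same 3 comparisons.

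Sostdc1 had opposite directions over time in the 2 genotypes. Its log2 fold of 5 days over 3 days was -0.42 in fl/fl and 0.47 in +/+ cells, a difference that was not tested. Without cells called female the +/+ value was 0.49. In cycling-like cells Sostdc1 was at 33.5 CPM at 5 days and 64.4 CPM at 3 days in fl/fl, and at 159 CPM at 5 days and 87.6 CPM at 3 days in +/+.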

How the results depend on the processing

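Of 1017 alternative log2 folds of the members, 791 stayed within the counting interval, 16 of values past 2-fold took the opposite sign, and 210 others moved out of the interval. With values under 2-fold included, 61 changed sign: 24 in wound comparisons on UMIs per cell, 3 in wound comparisons under other settings and 34 between times or genotypes. UMIs per cell, unscaled, are a scale chosen after seeing that wounded cells held more UMIs: at 3 days in fl/fl cells Id1 was then at 1.11, Smad6 at 0.34, Smad7 at 1.79, Bmpr1a at 1.71 and Sostdc1 at 0.68, and in +/+ cells Id1 at 1.22, Smad6 at 0.24, Smad7 at 1.91, Bmpr1a at 1.70, Bmp2 at 0.20 and Sostdc1 at 0.70. At 5 days fl/fl cells had Id1 at 1.54, Smad6 at 0.19, Smad7 at 1.94, Bmpr1a at 1.84, Bmp2 at 0.03 and Sostdc1 at 0.47, and +/+ cells had Id1 at 1.43, Id3 at 0.23, Smad6 at 0.25, Smad7 at 1.57, Bmpr1a at 1.56, Bmp2 at 0.04 and Sostdc1 at 1.10. Smad6 was at 0.24 within bulge-like clusters at 3 days in fl/fl cells. On UMIs per cell 2 members were at least 2-fold lower in each wound comparison, while 3 (fl/fl) and 3 (+/+) at 3 days and 3 (fl/fl) and 4 (+/+) at 5 days were at least 2-fold higher, beside 81.7% (fl/fl) and 80.6% (+/+) of all genes at 3 days and 84.5% (fl/fl) and 78.9% (+/+) at 5 days. Equal weight per cell moved further folds over 1.5 times: Id3 at 3 days to -2.51 (fl/fl) and -1.72 (+/+), Id4 at 5 days to -5.15 (fl/fl) and -3.66 (+/+), and in fl/fl cells Sostdc1 to -1.06 at 3 and -1.57 at 5 days and Smad6 to -1.84 at 5 days. At most 5% mitochondrial UMIs moved Smad6 in fl/fl cells at 3 days to -2.82. Within bulge-like clusters 4 (fl/fl) and 3 (+/+) were lower at 3 days. At 1.5-fold, 8 were lower in +/+ cells at 5 days, where 62.72% of all genes were lower by any amount. Between 5 and 3 days, 1 member was lower in +/+ cells at 1.5-fold and 1 without cells called female; in fl/fl cells it was 2 with no minimum CPM and 0 with a minimum of 20 CPM. Between genotypes, 1 was lower at 3 days and 1 at 5 days with no minimum CPM, and 2 at 5 days at 1.5-fold. The share of all genes at these other folds, minimum levels and cell filters is not given. These counts thus show only how the number of members moved. Of 280 counts of members, 262 stayed within 1.5 times. Of 180 shares of cells with a UMI, 140 moved with the thinning depth, and of 100 bulge-like levels 8 moved with the clustering. Where no value above bears on it, the cause was not tested.

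Small sums limit Smad6, Bmp2 and Bmp4, and the unwounded pools are shallow. No paired analysis was possible because each condition is 1 pool of cells and no comparison has replicates.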

Other observations

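Bambi, which encodes a BMP and TGF-beta pseudoreceptor, and Msx2, a BMP target gene of ectoderm, were read from the lists after their values were seen. Bambi was at 3.78 (fl/fl) and 3.09 (+/+) CPM at 3 days and 3.24 (fl/fl) and 3.49 (+/+) CPM at 5 days, against 27.5 (fl/fl) and 19.1 (+/+) CPM in unwounded cells. Msx2 was at 0.899 (fl/fl) and 0.957 (+/+) CPM at 3 days, against 8.90 (fl/fl) and 9.56 (+/+) CPM in unwounded cells. Skil, encoding the SMAD corepressor SnoN, stood against these, with 55.6 (fl/fl) and 56.5 (+/+) CPM at 5 days and 36.8 (fl/fl) and 31.2 (+/+) CPM in unwounded cells, a log2 fold of 0.60 (0.39 to 0.81) and 0.86 (0.57 to 1.16). No test was possible for these values either.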
